A study of Homo sapiens with 10 samples.

Results

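The adhesion genes of marrow homing described here are 10 named genes, found in the deposited table by the Ensembl identifiers of their symbols: ICAM1, ICAM2, ICAM3, ITGA4, ITGAL, ITGB1, ITGB2, ITGB7, SELPLG and CD44. All 10 were present among 58229 genes. Of these members, 9 had a mean of at least 1 FPKM (fragments scaled by transcript length and library total) over the 10 libraries and were tested with the 12872 genes that met this minimum. ITGB2 lay below it and is described by its values.

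The libraries came from 2 established human multiple myeloma lines, H929 and a line the labels call OCI without saying which. Each line gave 1 library of wild-type cells, 1 of cells overexpressing AIMP1, 1 of cells labelled as treated with protein, which the series title names as AIMP1, and 2 of cells with AIMP1 knockdown, numbered 1 and 2. AIMP1 holds together a complex of tRNA synthetases and is known as a secreted protein too. The labels give no dose, time, construct or clone. They name no separate cultures either, so that p-values measure only the spread between these libraries, which may be technical. In fits of both lines together, this spread also holds any difference between the lines in the effect of a manipulation.

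Integrins are surface receptors made of 1 alpha and 1 beta chain that must pair before they reach the membrane. ITGA4 encodes the alpha4 chain, which pairs with ITGB1 to form VLA-4, the receptor for VCAM-1 and fibronectin, and with ITGB7 to form the receptor for MAdCAM-1. ITGAL encodes the alpha chain of LFA-1 and ITGB2 its beta chain, and LFA-1 binds the immunoglobulin-like ligands encoded by ICAM1, ICAM2 and ICAM3. SELPLG encodes PSGL-1, the ligand on which leukocytes and myeloma cells roll over selectins, and CD44 is a receptor for hyaluronan. Adhesion of myeloma cells to marrow stroma through VLA-4 is known to support their growth and drug resistance.

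The library labelled H929 knockdown 1 held 98.2% of the AIMP1 mRNA of its wild type, against 16.4% to 35.1% in the other 3 knockdown libraries and 431% and 417% in the overexpression libraries of H929 and OCI. The depth of the H929 libraries, estimated from the smallest steps in FPKM, was 27.6% to 41.9% of that of OCI wild type, and that of the other OCI libraries 27.7% to 73.3%. The plasma cell marker SDC1 was present in every library, at 180 to 440 FPKM, and another, CD27, was listed at 0 in 7 libraries. The B cell marker MS4A1 did not exceed 0.128 FPKM. Another B cell marker, PAX5, was listed at 0 in every H929 library but stood at 1.22 to 4.36 FPKM in those of OCI. Of 31 markers of B, myeloid, T and NK, stromal, endothelial and adipose cells, 28 were above 0 in OCI protein and 24 in OCI knockdown 1, against 7 to 13 in the other 8 libraries. Their summed level was 20.6 FPKM in OCI protein, 8.68 to 13.0 FPKM in the other OCI libraries and 6.54 to 30.8 FPKM in H929, and MPO, CD3D and ADIPOQ were listed at 0 in OCI protein. In bulk RNA, fewer cells that carry a transcript and less of it per cell cannot be told apart.

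The sequences shown are the 250 bases before the annotated start of ICAM1, which had the largest ratio of protein to wild type among the tested members in OCI, and of the most upstream of 3 starts of ICAM3, which differed most between the lines. They were taken from RefSeq on GRCh38.p14, in which ICAM1 lies at chr19:10270870-10271119 on the plus strand and the ICAM3 window at chr19:10339625-10339874 on the minus strand. Capitals mark matches on either strand to the NF-kB consensus GGGRNNYYCC or to GGAAATTCC, TTCNNNGAA, TGANTCA, TGACGTCA or TGTGGT. R stands for A or G, Y for C or T and N for any base.
ICAM1: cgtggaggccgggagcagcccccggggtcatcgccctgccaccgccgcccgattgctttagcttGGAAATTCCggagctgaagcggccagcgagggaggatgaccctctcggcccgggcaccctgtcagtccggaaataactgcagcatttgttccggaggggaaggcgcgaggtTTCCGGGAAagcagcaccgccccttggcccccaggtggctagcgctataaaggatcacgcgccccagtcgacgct
ICAM3: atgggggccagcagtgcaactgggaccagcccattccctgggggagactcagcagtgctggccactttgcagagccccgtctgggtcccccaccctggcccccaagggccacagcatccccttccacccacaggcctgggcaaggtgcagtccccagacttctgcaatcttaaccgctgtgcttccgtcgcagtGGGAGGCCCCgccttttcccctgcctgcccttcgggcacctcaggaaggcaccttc
The ICAM1 window held GGAAATTCC, whose first letter lies 186 bases before the start, and TTCCGGGAA, a match to TTCNNNGAA, 75 bases before it, and these matches do not overlap. GGAAATTCC was found in 0.413% and TTCNNNGAA in 6.57% of the 35116 RefSeq windows of the same length. GGAAATTCC was picked as an exact string apart from the consensus, so its low share is no test of ICAM1. The absence of a consensus match from the ICAM1 window does not show that no NF-kB site lies there. The ICAM3 window held 1 match to the NF-kB consensus, which was found in 9.96% of windows. Of the 10 members 6 had an entry in the table of promoters, and among their other windows only 1 of ITGB1 held a match, also to the NF-kB consensus. A match is a run of letters and says nothing of whether a factor binds there.

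ITGB7 was the most abundant member in both lines, at 783 ± 223 FPKM (SD, n = 5 libraries) in H929 and 746 ± 303 FPKM in OCI, and its range overlapped that of no other member. In H929 it was followed by ITGA4 (164 ± 36.2 FPKM), CD44 (121 ± 34.9), ITGAL (63.4 ± 24.3), ITGB1 (57.6 ± 14.3), SELPLG (41.1 ± 8.6) and ICAM2 (30.8 ± 5.41), and the ranges of neighbours in this order overlapped. ITGB2, ICAM3 and ICAM1 came last, with means of 0.616, 0.302 and 0.218 FPKM and overlapping ranges, all below the lowest ICAM2 value of 25 FPKM. In OCI the order after ITGB7 was CD44 (100.1 ± 29.1 FPKM), ITGA4 (67.2 ± 16.0), SELPLG (51.3 ± 5.45), ICAM3 (50.3 ± 17.5), ICAM2 (35.2 ± 8.07), ITGB1 (34.9 ± 7.24), ITGAL (11.3 ± 11.4), ICAM1 (3.99 ± 3.25) and ITGB2 (0.171 ± 0.204), each overlapping the next. These SDs hold the effects of the manipulations as well as the spread between libraries.

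**Figure D1:**
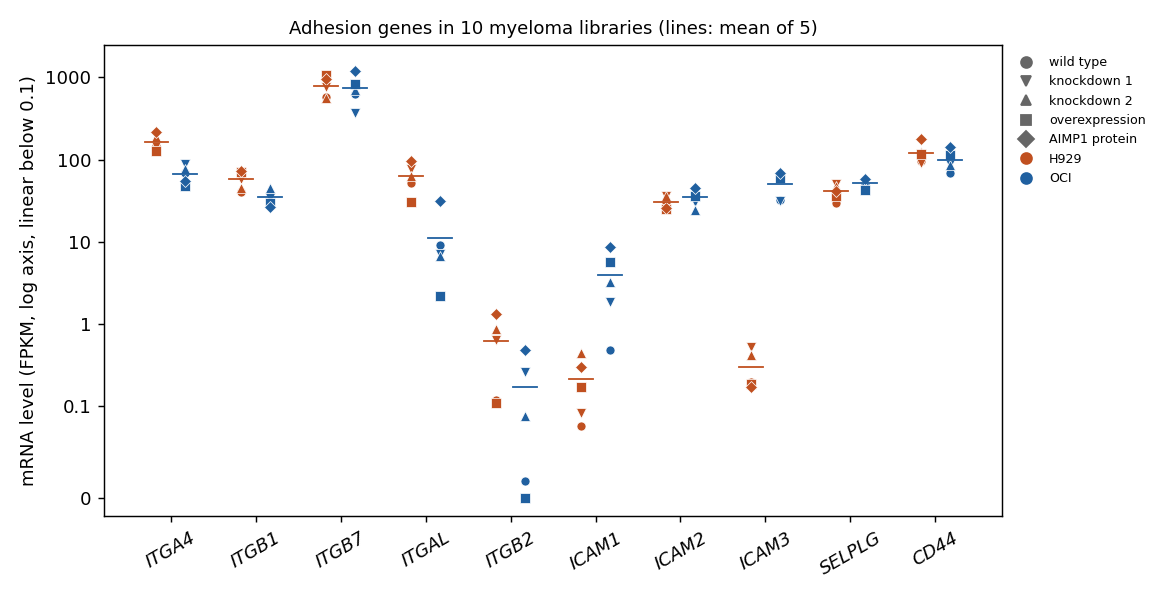
FPKM of the 10 adhesion genes (log axis, linear below 0.1) in each library, H929 in orange and OCI in blue, with a symbol for each manipulation and a bar for the mean of the 5 libraries of a line. ICAM3 lies at 31.0 to 69.6 FPKM in OCI and at 0.172 to 0.530 FPKM in H929, and ITGB7 is highest in every library.

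OCI carried far more mRNA of the ligand gene ICAM3, and H929 more of the alpha chains ITGAL and ITGA4. The ligand gene ICAM1 was also higher in OCI, but mainly in manipulated libraries, since wild type held 0.481 FPKM in OCI and 0.0784 FPKM in H929. limma called 4 of the 9 tested members at an adjusted p under 0.05, 2 higher and 2 lower in OCI. Of all tested genes 12.9% were called, 7.6% as higher in OCI and 5.28% as lower. Before adjustment, p was under 0.05 for 5 members and 29.4% of genes. The 5 libraries of one line did not overlap those of the other for ICAM1, ICAM3 and ITGA4, as was the case for 12% of tested genes, 6.22% higher in OCI and 5.75% higher in H929. After quantile normalization ITGAL and no longer ICAM1 was among the 3 members without overlap.

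ICAM3, whose product is a ligand of LFA-1 on resting leukocytes, stood at 0.199 FPKM in wild type, 0.530 and 0.422 in knockdown 1 and 2, 0.186 in overexpression and 0.172 in protein in H929. In OCI the same libraries held 32.5, 31.0, 59.3, 59.1 and 69.6 FPKM. Every OCI library was above every H929 library. The difference of OCI minus H929 was 5.23 ± 0.25 on the log2(FPKM + 1) scale (SE; limma adjusted p = 3.18e-06), a scale that understates changes of low genes, and the ratio of the mean FPKM was 167. An antisense gene that overlaps ICAM3, AC114271.1, was listed at 4.64 to 7.70 FPKM in H929 and 5.58 to 10.8 FPKM in OCI. The use of strand in counting is not given in the sources used.

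ICAM1, the LFA-1 ligand that inflammatory signals induce through NF-kB, was low in H929, with 0.0784 FPKM in wild type, 0.0929 and 0.445 in knockdown 1 and 2, 0.173 in overexpression and 0.298 in protein. In OCI it stood at 0.481 FPKM in wild type, 1.86 and 3.25 in the knockdowns, 5.71 in overexpression and 8.67 in protein. The OCI wild-type library was only just above the highest H929 library. OCI exceeded H929 by 1.76 ± 0.36 log2 (limma adjusted p = 0.0122), a call that ended without H929 overexpression (1.57; adjusted p = 0.0554) and without OCI overexpression (1.57; adjusted p = 0.0566). Without OCI knockdown 1 and OCI protein, the libraries with the most markers of other cells above 0, the difference was 1.60 and the adjusted p 0.0561 in limma. With a pseudocount of 0.1 the difference was 3.31.

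The third ligand, ICAM2, a constitutively expressed member of the family, lay between 25 and 36.5 FPKM in H929 libraries and between 24.2 and 44.7 FPKM in those of OCI. These ranges overlapped, and the 95% interval of the difference ran from -0.30 to 0.64 log2. Among ICAM1, ICAM2 and ICAM3, ICAM2 was thus far above the others in H929, while in OCI the mean of ICAM3 was above that of ICAM2 and their ranges overlapped.

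ITGAL was higher in H929, where it stood at 51.8 FPKM in wild type, 75.9 and 63.7 in knockdown 1 and 2, 30.7 in overexpression and 94.9 in protein. OCI held 9.12 FPKM in wild type, 7.11 and 6.73 in the knockdowns, 2.17 in overexpression and 31.2 in protein. Only the OCI protein library reached the lowest H929 value, that of overexpression. OCI was lower by a log2 difference of -2.72 ± 0.25 (limma adjusted p = 0.000235).

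Its partner ITGB2 was near 0 in both lines. It was listed at 0.12 FPKM in H929 wild type, 0.635 and 0.870 in the knockdowns, 0.112 in overexpression and 1.35 in protein, and at 0.0189, 0.259, 0.0891, 0 and 0.486 FPKM in the OCI libraries in the same order. ITGAL was 70.6 to 431 times as abundant as ITGB2 in H929, and 27.4 to 482 times in the 4 OCI libraries where ITGB2 was above 0. Within OCI the 2 highest ITGB2 values were in protein and knockdown 1, the libraries with the most markers of other cells above 0. The part of such cells in these values was not tested. A gene inside an ITGB2 intron on the same strand, AL844908.2, had a highest value of 3.0 FPKM in H929 and of 8.51 FPKM in OCI.

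ITGA4, the alpha chain shared by VLA-4 and alpha4 beta7, stood at 146, 145, 188, 127 and 215 FPKM in H929 wild type, knockdown 1, knockdown 2, overexpression and protein. In OCI it stood at 69.0, 87.8, 76.2, 48.4 and 54.5 FPKM, and every OCI library was below every H929 library. The difference was -1.28 ± 0.18 log2 (limma adjusted p = 0.00222). Its partner ITGB1, the beta1 chain, lay between 41.0 and 72.0 FPKM in H929 libraries and between 26.5 and 45.1 FPKM in those of OCI, a difference of -0.69 ± 0.22 log2 that missed the threshold (limma adjusted p = 0.0705).

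ITGB7, the beta7 chain that a subset of myelomas is known to express highly, was at 579, 771, 554, 1062 and 949 FPKM in H929 wild type, knockdown 1, knockdown 2, overexpression and protein. OCI held 622, 369, 710.0, 837 and 1192 FPKM, and the ranges overlapped, with a 95% interval of the difference from -0.62 to 0.38 log2. ITGB7 mRNA exceeded ITGA4 mRNA 2.94 to 8.39 times in H929 and 4.21 to 21.9 times in OCI. ITGA4 in turn exceeded ITGB1 1.78 to 4.15 times in H929 and 1.61 to 2.55 times in OCI. In each library the alpha4 transcript therefore lay between those of its beta partners. FPKM is scaled by length, so these ratios compare levels between genes.

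SELPLG covered 29.5 to 51.1 FPKM in H929 and 42.7 to 57.6 FPKM in OCI, and the interval of the difference ran from -0.02 to 0.69 log2. CD44 covered 91.8 to 179 FPKM in H929 and 68.7 to 143 FPKM in OCI, with an interval from -0.62 to 0.05 log2. The table sums all transcripts of a gene, so the CD44 splice variants known from myeloma are not separated. SELPLG, ITGB7 and ICAM2 are also overlapped by other genes, of which AC007569.1 reached 8.15 FPKM, ZNF740 12.4 FPKM and PRR29 1.15 FPKM.

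**Figure D2:**
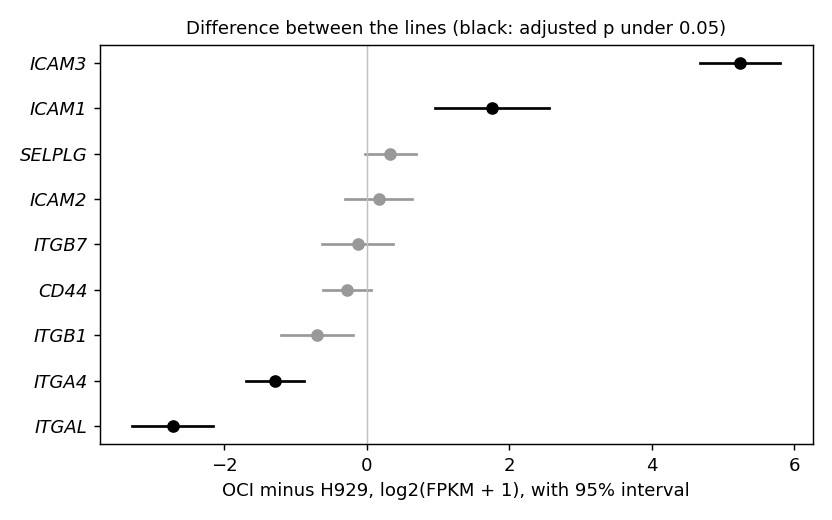
Fitted difference of OCI minus H929 for the 9 tested members on the log2(FPKM + 1) scale, with 95% intervals from limma on all 10 libraries. ICAM3 (5.23) and ICAM1 (1.76) lie to the right and ITGAL (-2.72) and ITGA4 (-1.28) to the left, in black for an adjusted p under 0.05, and the intervals of the grey members apart from ITGB1 include 0.

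In cells given AIMP1 protein, CD44, ITGAL, ITGB7 and ICAM1 had higher mRNA levels than in wild type in both lines, though none passed the adjusted threshold. limma called 0 of 9 members, with 4 at an unadjusted p under 0.05. Over all tested genes 0.0155% were called and 19.0% had an unadjusted p under 0.05. SELPLG was also higher in both lines, giving 5 of 9 members where 36.7% of tested genes showed this, but not after quantile normalization. The protein libraries stood apart in composition. In OCI protein 5 abundant short RNA genes made up 49.6% of the summed FPKM, against 72.2% to 80.7% in the other 9 libraries, and the FPKM of H929 protein summed to 10598200, against 3437320 to 7890140 in the others. The part of this in the differences was not tested beyond the scalings given. The members' median difference was 0.52 log2 and that of all tested genes 0.14, a shift that median centring took to -0.01.

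H929 held 96.4 FPKM of CD44 in wild type and 179 FPKM in protein, a ratio of 1.86. OCI held 68.7 and 143 FPKM, a ratio of 2.08. The remaining libraries held 91.8, 123 and 117 FPKM in H929 knockdown 1, knockdown 2 and overexpression, and 88.4, 85.7 and 115 FPKM in OCI. Protein was thus the highest library of both lines for CD44, as it was for ITGAL, and 14.1% of tested genes showed the same. After median centring both members and 9.26% of genes showed it, and after quantile normalization both and 8.17%. The fitted difference from wild type was 0.97 ± 0.24 log2 (limma adjusted p = 0.127), and 0.82 after median centring. Against the knockdown and overexpression libraries, which share no sample with wild type, it was 0.60 ± 0.20 (limma adjusted p = 0.230), or 0.29 after quantile normalization (adjusted p = 0.506). Both comparisons use the same protein libraries and the same estimate of the spread, so they are not independent.

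ITGAL reached 1.83 times the wild-type level in H929 protein and 3.43 times in OCI protein, with a fitted difference of 1.27 ± 0.40 log2 (limma adjusted p = 0.171). Without OCI protein the difference was 0.55 and without H929 protein 1.98. Against the knockdown and overexpression libraries it was 1.85 ± 0.33 (limma adjusted p = 0.158). That comparison called 0 of 9 members, with 2 at an unadjusted p under 0.05, and 0% of all tested genes, of which 15.5% had an unadjusted p under 0.05. Without the H929 protein library, ITGAL was called there (2.57; limma adjusted p = 0.0248), and without OCI protein its difference was 1.14.

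ITGB7 was 1.64 times wild type in H929 protein and 1.92 times in OCI protein, a fitted difference of 0.83 ± 0.35 log2 (limma adjusted p = 0.246). It was 0.54 without OCI protein and 0.51 after quantile normalization. ICAM1 rested on OCI, where the protein library held 18.0 times the wild-type FPKM, and on values under 0.5 FPKM in H929. Its fitted difference of 1.49 ± 0.57 log2 did not pass (limma adjusted p = 0.207), and it was 0.78 without OCI protein, 0.67 without OCI wild type and 2.30 without H929 wild type. A pseudocount of 0.1 gave 2.54. The OCI protein library was also the one with the most markers of other cells above 0, whose part in these values was not tested. ICAM1 was likewise high, at 5.71 FPKM, in OCI overexpression, where 13 of the 31 markers were above 0. ITGA4 and ITGB1 went opposite ways in the lines, at 1.47 and 1.76 times wild type in H929 protein and at 0.789 and 0.691 times in OCI protein.

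**Figure D3:**
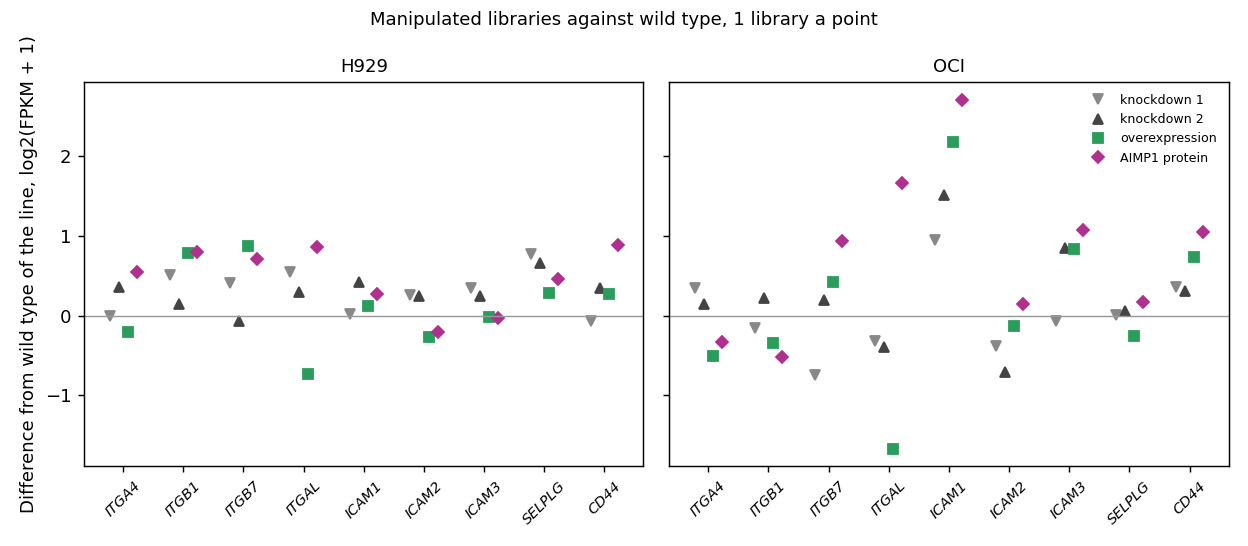
Difference of each manipulated library from the wild-type library of its line, in log2(FPKM + 1), for the 9 tested members in H929 (left) and OCI (right). ITGAL is lowest in overexpression (-0.73 and -1.67) and highest in protein (0.86 and 1.67) in both lines, and ICAM1 is above wild type in all 4 OCI libraries (0.95 to 2.71).

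In cells overexpressing AIMP1, ITGAL was lower than wild type in both lines, at 0.593 times the wild-type FPKM in H929 and 0.238 times in OCI. It was the lowest library of each line, as it was for ITGA4, and 5.17% of tested genes were lowest in overexpression in both lines. No member was highest there in both lines, a pattern of 3.14% of genes. After quantile normalization ITGAL alone of the members was lowest in overexpression in both lines, beside 4.16% of genes. After median centring both ITGAL and ITGA4 were lowest there, beside 4.0% of genes. The fitted ITGAL difference was -1.20 ± 0.40 log2 (limma adjusted p = 0.742) and missed the threshold. limma called 0 of 9 members and 0% of all tested genes, with 1 member and 6.35% of genes at an unadjusted p under 0.05. ICAM1, ITGB7 and CD44 were higher in both lines, as were 30.9% of tested genes, and ICAM2, ITGA4 and ITGAL were lower in both, as were 30.6%. ITGB7 stood at 1.83 and 1.35 times wild type and CD44 at 1.22 and 1.67 times in H929 and OCI.

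Knockdown left no member past the threshold. limma called 0 of 9 members and 0% of all tested genes, with 0 members and 2.76% of genes at an unadjusted p under 0.05. The largest fitted difference was that of ICAM1, 0.73 ± 0.49 log2 (limma adjusted p = 0.980), which was -0.09 without OCI wild type, 1.54 without H929 wild type and 1.5 with a pseudocount of 0.1. All 4 knockdown libraries were above the wild type of their line for ICAM1 and SELPLG, as for 13.6% of tested genes, but for ICAM1 not after median centring or quantile normalization. SELPLG was 1.73 and 1.60 times wild type in H929 knockdown 1 and 2, and 1.01 and 1.04 times in OCI. The first of these is the library in which AIMP1 mRNA was not reduced.

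Knockdown and overexpression were also set against each other in the same fit of all 10 libraries. The wild-type libraries are on neither side of this comparison but enter its estimate of the spread. ITGAL was higher in knockdown by 1.24 ± 0.35 log2, ITGA4 by 0.56 ± 0.25, and ITGB7 had a difference of -0.70 ± 0.31. Each had a limma adjusted p of 1, so that 0 of 9 members and 0% of all tested genes were called, with 3 members and 2.91% of genes at an unadjusted p under 0.05. Overexpression was the lowest library of both lines for ITGAL and ITGA4, as for 5.17% of tested genes, so both knockdown libraries lay above it. For ITGAL the difference was 1.61 without H929 overexpression and 0.86 without OCI overexpression.

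**Figure D4:**
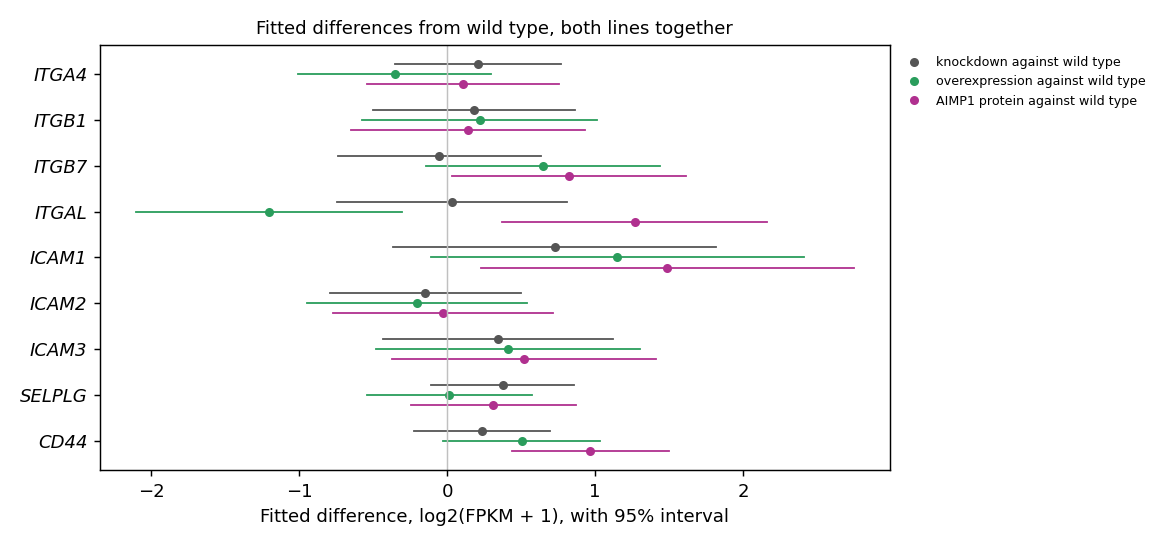
Fitted differences from wild type over both lines on the log2(FPKM + 1) scale, with 95% intervals from limma, for knockdown (grey), overexpression (green) and AIMP1 protein (magenta). The comparisons share the 2 wild-type libraries, and the ITGAL interval lies below 0 in overexpression and above 0 in protein, while no adjusted p was under 0.05.

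Differences between the lines in the effect of a manipulation were fitted on 8 group means, so that the spread rests on the knockdown pairs alone. The H929 pair was unlike in AIMP1 mRNA, at 98.2% of wild type in knockdown 1 and 24.5% in knockdown 2. Its spread may therefore hold more than that between replicates. limma called 0 of 9 members in each of these 3 comparisons, where 0%, 0.00777% and 0.101% of tested genes were called for knockdown, overexpression and protein. For protein these were 0.0155% with the higher effect in OCI and 0.0855% with the lower one. ICAM1 had the largest difference in each. In protein it was higher than wild type by 0.27 log2 in H929 and by 2.71 in OCI, a difference between the lines of 2.44 ± 0.74 (limma adjusted p = 0.70). For overexpression the difference between the lines was 2.06 ± 0.74 and for knockdown 1.01 ± 0.64, each with a limma adjusted p of 1. Of the 9 members 0, 1 and 1 had an unadjusted p under 0.05 for knockdown, overexpression and protein, beside 1.26%, 2.32% and 6.98% of genes.

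Among the other 21 integrin subunit genes, 6 were tested and 0 were called in any comparison that used both lines together. ITGB5, the beta5 chain, had the highest mean of these, at 60.0 FPKM, and ITGAE, the alpha chain that pairs with beta7 to bind E-cadherin, came next at 23.8 FPKM. ITGAM, the alpha chain of Mac-1, was listed at 0 in 7 libraries and was highest in OCI overexpression, at 1.41 FPKM. ITGAX, another alpha partner of ITGB2, had a mean of 0.782 FPKM, with 1.48 FPKM in H929 and 0.0868 FPKM in OCI, and was not tested. In protein against wild type the median difference of the 6 tested subunits was 0.50 log2, beside 0.14 for all tested genes. The smallest p among them was that of ITGAV, the alpha chain of vitronectin receptors, at 1.45 ± 0.36 log2 (limma adjusted p = 0.125). ITGAV stood at 3.87 FPKM in wild type and 14.6 FPKM in protein of H929, and at 2.24 and 6.58 FPKM in those of OCI. Between the lines the smallest p was that of ITGA3, the alpha3 chain, at 0.83 ± 0.26 log2 (limma adjusted p = 0.0625).

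**Figure D5:**
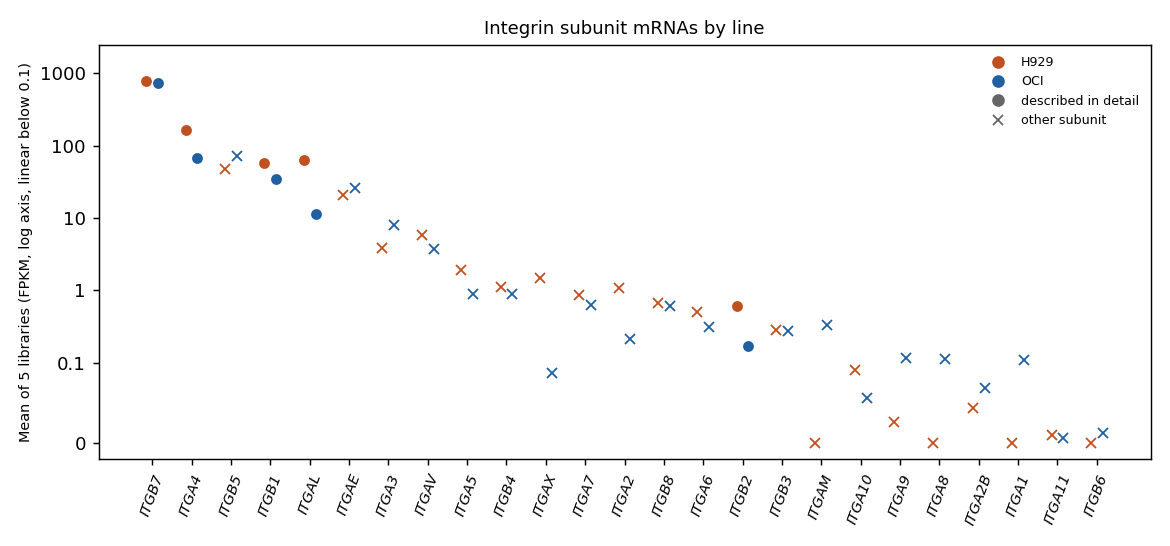
Mean FPKM over 5 libraries (log axis, linear below 0.1) of the integrin subunit genes above 0 in any library, with circles for the 5 described in detail and crosses for others. ITGB7 leads in both lines, and ITGB2 lies at 0.616 FPKM in H929 and 0.171 FPKM in OCI.

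Of 34 genes that activate integrins or link them to actin, 29 were tested, and between the lines 1 was called higher and 3 lower in OCI. APBB1IP, which encodes RIAM, the adaptor that carries talin to integrins in response to RAP1, was listed at 0 in all 5 H929 libraries and stood at 6.60 to 13.7 FPKM in OCI (limma adjusted p = 2.10e-05). PARVB, an adaptor of integrin-linked kinase, was lower in OCI by a log2 difference of -1.36 ± 0.19 (adjusted p = 0.00196), ACTN1, an actin crosslinker, by -1.14 ± 0.26 (adjusted p = 0.0192) and SKAP2, a cytosolic adaptor, by -0.90 ± 0.21 (adjusted p = 0.0220), all from limma. The talin gene TLN1 and the kindlin gene FERMT3, whose products switch integrins on, were present in every library, at 40.0 to 71.3 and 38.6 to 91.1 FPKM. In the manipulations 0 of the 29 were called. Against wild type the smallest p was that of TLN2, a talin gene, in knockdown (1.09 ± 0.55 log2), of PARVB in overexpression (-0.86 ± 0.30) and of CIB1 in protein (0.92 ± 0.24), with limma adjusted p of 0.980, 0.742 and 0.135.

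The counter-receptor genes of the alpha4 integrins were nearly silent, with VCAM1 at no more than 0.0468 FPKM and MADCAM1 at no more than 1.12 FPKM. Of 28 other counter-receptor and tetraspanin genes 14 were tested, and in OCI 1 was called higher and 2 lower. CD151, a tetraspanin that binds laminin-binding integrins, differed by 0.62 ± 0.15 log2 (limma adjusted p = 0.0234). NCAM1, the CD56 antigen of malignant plasma cells, differed by -1.52 ± 0.28 (adjusted p = 0.00771) and CD82, another tetraspanin, by -1.16 ± 0.31 (adjusted p = 0.0357), also by limma. CD82 had the smallest p of this list in knockdown (limma adjusted p = 0.980) and in overexpression (adjusted p = 0.742). The neighbours ICAM4 and ICAM5 of ICAM1 stood at no more than 0.456 FPKM and at 2.63 to 16.8 FPKM.

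The endothelial selectin genes SELE and SELP were listed at 0 in all libraries. Of 21 genes of selectins and of the synthesis of selectin ligands 14 were tested. ST3GAL6, a sialyltransferase that builds selectin ligands, was higher in OCI by 0.96 ± 0.20 log2 (limma adjusted p = 0.0141), and 0 other genes of this list were called between the lines. FUT7, the fucosyltransferase that completes the selectin-binding sugar, did not exceed 0.162 FPKM, and the related FUT4 stood at 0.348 to 0.989 FPKM. Of 20 genes of CD44 ligands and partners 12 were tested, with 1 called higher and 2 lower in OCI. CD74, the invariant chain that forms a receptor with CD44, differed by 2.12 ± 0.47 log2 (limma adjusted p = 0.0178), LGALS9, a galectin, by -1.58 ± 0.43 (adjusted p = 0.0379) and RDX, which ties CD44 to actin, by -0.78 ± 0.20 (adjusted p = 0.0290). The hyaluronan synthase genes HAS1, HAS2 and HAS3 did not exceed 0.846 FPKM. In the manipulations limma called 0 genes of these lists. CD74 had the smallest p of the CD44 partners in each comparison with wild type, at 2.30 ± 0.64 log2 in knockdown, 2.32 ± 0.74 in overexpression and 3.40 ± 0.74 in protein (limma adjusted p of 0.980, 0.742 and 0.108). Its knockdown libraries held 0.931 and 2.71 FPKM in H929, against 0.634 in wild type, and 24.8 and 40.0 FPKM in OCI, against 1.21. The wild-type values lay close together, so the CD74 difference between the lines was seen mainly in manipulated libraries.

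For the 3 tested members with the widest range of differences from wild type over the 8 manipulated libraries, ITGAL, ICAM1 and ITGB7, the protein-coding genes with the most similar differences were looked up among 10691 candidates. The measure was the mean absolute distance over the 8 libraries in log2(FPKM + 1). ITGAL lay closest to EPC1, a chromatin regulator, at 0.309, EVL, an actin regulator of the Ena/VASP family, at 0.358, and the apolipoprotein gene APOC1 at 0.371, against a median of 0.852. EPC1 shared the low OCI overexpression value (-1.09) and the high OCI protein value (1.06). ICAM1 lay closest to STPG1 (0.244), PIMREG (0.265) and ISG20 (0.287), the last an interferon-induced exonuclease, against a median of 1.12. PIMREG had a difference of exactly 0 in every manipulated H929 library, as a gene listed at 0 throughout that line would. ICAM1 itself did not exceed 0.445 FPKM in H929, so its likeness to other genes there compares values near the floor. ITGB7 lay closest to DPP7, a dipeptidyl peptidase (0.152), SNRPN (0.187) and NBDY (0.188), against a median of 0.639. Libraries of a line share its wild-type library in this measure. The closest of 10691 candidates lie below the median by selection, so the medians give scale and are no test of likeness.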

How the data were processed

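Poly(A) RNA was sequenced as paired ends, per the labels' protocols. The authors deposited 1 table of FPKM values for 58229 genes, made per the submitters' processing notes with HISAT2 2.0, StringTie 1.3.0 and Bowtie 0.12.2, whose roles are not given. The notes name the mouse build mm8 while the identifiers are human, so no coordinates of the files were used. Columns were mapped by name, and those of wild type carry a suffix that no label explains. Of the identifiers 57518 matched a table of names and 41822 had a symbol.

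Values were analysed as log2(FPKM + 1) with limma 3.58.1 in R 4.3.3 on the 12872 genes whose mean reached 1 FPKM. An additive model of line and manipulation on 10 libraries (5 residual degrees of freedom) used moderated variances with a trend, with Benjamini-Hochberg adjustment of two-sided p-values at 0.05. Differences between the lines in a manipulation used 8 group means (2 residual degrees of freedom). The procedure was run on simulated data in which manipulations acted alike in both lines and genes of low level were left unchanged. That run does not show how well changes of low genes, or effects that differ between the lines, are found. No read counts were used, so no counting intervals are given, and absolute depth is unknown.

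The members and lists were chosen with earlier results of these data known. A fitted difference is printed for members with an unadjusted p under 0.05 and for the largest in each comparison. From each list up to 3 called genes per direction are named, or the gene with the smallest p, beside genes of known role given by level alone. Overlapping genes are from GENCODE 29. Results were recomputed with a pseudocount of 0.1, a minimum of 0.1 FPKM or none, quantile normalization, median centring, untrended variances, a replicate block, group means, a model lacking the line, each library left out and, chosen after seeing the data, leaving out OCI knockdown 1 with OCI protein or both protein libraries.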

Additional observations from a re-analysis of the deposited data

How the results depend on the processing

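The number of members called between the lines was 4 of 9, 3 in the fits without H929 or OCI overexpression and without OCI knockdown 1 and OCI protein together, and 4 in the other fits that left out a library. ICAM3, ITGAL and ITGA4 kept their call between the lines under all 20 alternatives, with differences of 5.06 to 6.98, -3.00 to -2.57 and -1.41 to -1.11 log2. ICAM1 lost it in 4 of 20, among them the fit with no filter (adjusted p = 0.0583). Over the fits that left out 1 library, the members called in protein against knockdown and overexpression numbered 0 to 1, and the ICAM1 difference in knockdown ran from -0.088 (without OCI wild type) to 1.54. In the other manipulation comparisons 0 members were called under every alternative run. With the knockdown number as a replicate block, 4 members were called between the lines and 0 elsewhere, as without it. The differences of knockdown 1 from knockdown 2 correlated at r = 0.0757 between the lines over 12872 genes, so the numbers are not treated as pairs. For the comparisons by line only the knockdown libraries were left out in turn. Without both protein libraries, 4 members were called between the lines. Each manipulation has 1 library per line apart from knockdown, and values under 1 FPKM, as of ITGB2 and of ICAM1 and ICAM3 in H929, may rest on few fragments.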
